A study of Drosophila melanogaster with 3 samples.

Results

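Aminoacyl-tRNA synthetase genes encode the enzymes that join each amino acid to its transfer RNA. The genes described here are the protein-coding genes of the Ensembl annotation of Drosophila melanogaster whose symbol is a three-letter amino acid code, or GluPro, followed by RS. The pattern found 33 genes among 13945 protein-coding genes on chromosome arms 2L, 2R, 3L, 3R, 4 and X. Of these, 15 carry the suffix -m and are called mitochondrial here, and 18 carry no suffix and are called cytosolic. The genes for the alpha and beta subunits of cytosolic phenylalanyl-tRNA synthetase carry a Greek prefix, so they fell outside the pattern and are given with the other genes of the pathway.

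The DNA came from whole embryos aged 0 to 24 h, of mixed sex, of a transgenic line that stably expresses CG3995 with a C-terminal GFP tag. Chromatin was sonicated to fragments of 200 to 800 bp and recovered with an antibody against GFP, so the assay (ChIP-seq) maps DNA that was near the tagged protein. All 3 samples form 1 group of biological replicates, numbered 1 to 3. There was no second genotype, stage or treatment, no control library was analysed here, and the promoter that drives the transgene is not given in the labels. Whole embryos mix all cell types and 24 h of development, so a region can come from few cells with strong binding or from many with weak binding. The labels call the replicates biological but do not say whether the embryos were collected separately. How much of the spread between them is technical is therefore unknown.

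The deposited region lists on the dm6 genome held 4260 thresholded regions, 27868 regions from the pooled replicates, and 30000, 28051 and 24171 regions from replicates 1, 2 and 3. The thresholded regions were the 4260 pooled regions with the largest signal, the authors' value for each region. Signal was on different scales in the different lists, so lists were compared by rank, with rank 1 the strongest. A gene was called bound when the summit of a thresholded region lay within 500 bp of one of its annotated transcript starts. In a replicate list, the 4260 strongest regions took the place of the thresholded list. The files give no read counts, so the depth is unknown and no counting interval can be given. No test was run: the design has 1 group, genes are not replicates, and counts are set beside those of all protein-coding genes.

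Cells need synthetases in the cytosol, where the proteins encoded by the nucleus are made, and in mitochondria, which translate the few messages of their own genome. Both sets are encoded in the nucleus. For many amino acids separate genes serve both places, and for some a single gene serves both, as is known in human cells for glycine and lysine. Glutaminyl-tRNA in mitochondria is made by the GatCAB amidotransferase from glutamate-charged tRNA instead of by a synthetase of its own. The enzymes fall into class I and class II, which differ in the fold of the catalytic domain.

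The synthetase genes were bound more often than protein-coding genes as a whole, and 11 of the 15 bound ones were cytosolic. Of the 33 synthetase genes, 15 (45.5%) were bound, beside a background of 28.2% of all protein-coding genes (3936 genes). By class, 4 of 15 mitochondrial genes (26.7%) and 11 of 18 cytosolic genes (61.1%) were bound. In the thresholded list the mitochondrial share was near the background and the cytosolic share was above it. When thresholded regions also had to overlap the strongest regions of replicates 2 and 3, or of 1 and 3, fewer genes were bound. In both cases 2 of 15 mitochondrial genes (13.3%) were bound, below the 22.8% or 23% of all protein-coding genes. Among the regions above the median thresholded signal, 6 of 33 synthetase genes (18.2%) were bound, near the 16.3% of all protein-coding genes; these were 0 of 15 mitochondrial and 6 of 18 cytosolic genes (33.3%). Each replicate list had one of its strongest regions at 14 of the 33 synthetase genes (42.4%). These were not the same genes each time, and 11 genes were among the strongest in all 3. The backgrounds were 28.0% in replicate 1, 28.0% in replicate 2 and 26.3% in replicate 3. The mitochondrial genes gave 5, 3 and 3 bound genes in replicates 1, 2 and 3, or 24.4% ± 7.7 (SD, n = 3). The cytosolic genes gave 9, 11 and 11, or 57.4% ± 6.42 (SD, n = 3). Mitochondrial minus cytosolic, the difference in share was -16.7, -41.1 and -41.1 percentage points in the 3 replicates, with a mean of -33 ± 14.1 (SD, n = 3). It had the same sign in 3 of 3 replicates, and replicate 1 gave the smallest difference.

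**Figure D1:**
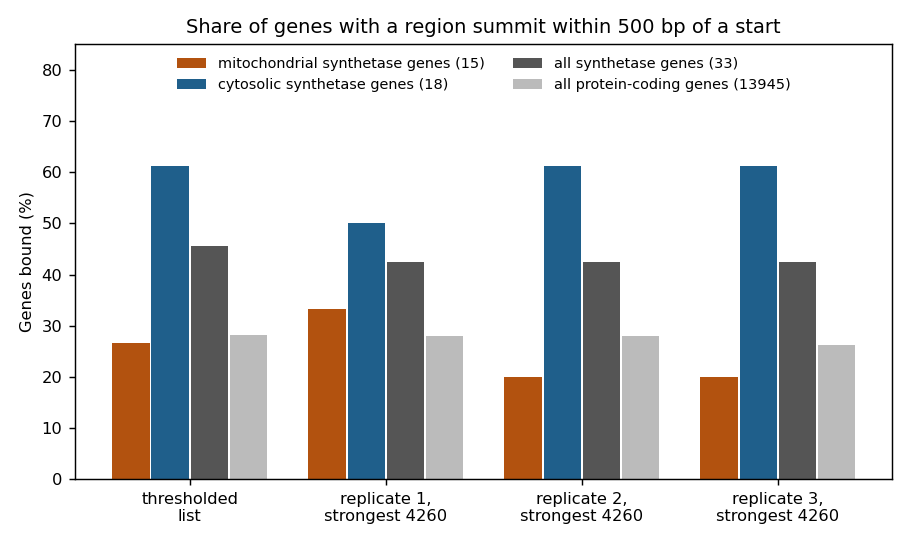
Share of genes (y axis, %) with a region summit within 500 bp of a start, in the thresholded list and in the 4260 strongest regions of each replicate, for mitochondrial, cytosolic and all synthetase genes and for all protein-coding genes; each bar is 1 list and has no error bar. The mitochondrial bars lie between 20% and 33.3%, around the protein-coding bars, and the cytosolic bars lie between 50% and 61.1%.

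With any region of the pooled list in place of a thresholded one, 25 of 33 synthetase genes (75.8%) had a region within 500 bp of a start, beside 57.3% of all protein-coding genes. That was 8 of 15 mitochondrial genes (53.3%) and 17 of 18 cytosolic genes (94.4%). Taking genes with no region as last, the median pooled rank was 17434 for mitochondrial genes and 2878 for cytosolic genes, where it was 15831 for all protein-coding genes. The mean of log10 rank over the replicate lists, with a missing gene placed at the end of its list, was 4.05 ± 0.04 for mitochondrial genes and 3.43 ± 0.01 for cytosolic genes (SD, n = 3). Mitochondrial minus cytosolic, this difference was 0.59, 0.62 and 0.65 in replicates 1, 2 and 3. It was positive in every replicate, so the mitochondrial genes ranked weaker each time.

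The bound mitochondrial genes were TrpRS-m, ArgRS-m, CysRS-m and AspRS-m, which load tryptophan, arginine, cysteine and aspartate onto mitochondrial tRNAs. All 4 lay in the weaker part of the thresholded list. TrpRS-m was the strongest, with a signal of 170 and rank 3008 in the pooled list, and ranks of 2536, 3233 and 3905 in replicates 1, 2 and 3. ArgRS-m had a signal of 142 and pooled rank 3742, with replicate ranks of 4241, 4091 and 3415. Both stayed within the strongest 4260 regions of every replicate, ArgRS-m narrowly so in replicate 1. CysRS-m had a signal of 142 and pooled rank 3779, with replicate ranks of 4378, 5022 and 3911, so it was within the strongest regions of replicate 3 alone. AspRS-m, at a signal of 136 and pooled rank 3966, had replicate ranks of 3670, 2960 and 6049. Its replicate 3 region was also displaced, with a summit 339 bp downstream of the start, where replicates 1 and 2 placed it 24 and 12 bp upstream.

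For 3 of these 4 genes the DNA upstream of the start is shown, to place the summit in its sequence. It reaches 60 bp beyond the summit or, for ArgRS-m, 60 bp beyond the start. TrpRS-m had its summit 9 bp upstream of the start, AspRS-m 10 bp upstream, and ArgRS-m 5 bp inside the 5' untranslated exon. The stretches end at the base before the start, run 5' to 3' on the strand of the gene, and were read from the RefSeq copy of the dm6 assembly. They are chr3L:17849658-17849726 on the plus strand for TrpRS-m, chr3R:7886985-7887044 on the plus strand for ArgRS-m and chr2L:16827008-16827077 on the plus strand for AspRS-m. Capitals mark the core CGATA of the DNA replication-related element (DRE, the site of the factor DREF) or its reverse complement TATCG.
TrpRS-m: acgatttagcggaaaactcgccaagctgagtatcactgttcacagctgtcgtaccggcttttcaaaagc
ArgRS-m: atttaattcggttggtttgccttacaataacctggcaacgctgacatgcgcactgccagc
AspRS-m: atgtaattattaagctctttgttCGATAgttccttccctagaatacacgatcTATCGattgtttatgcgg
AspRS-m held the core in each orientation, and its copies centred 45 and 16 bp upstream of the start. TrpRS-m and ArgRS-m held none in these stretches.

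The 11 bound cytosolic genes covered a far wider range of signal, and the strongest region lay at GlyRS, the glycyl-tRNA synthetase gene. Signals are listed by synthetase gene, though at GlyRS, GluProRS and TrpRS the start of another gene was nearer the summit, as given below. GlyRS had a signal of 7742 and rank 102 in the pooled list, and ranks of 100, 107 and 105 in replicates 1, 2 and 3. ArgRS, for arginine, had a signal of 1985 and pooled rank 265, with replicate ranks of 263, 295 and 265. These positions barely moved between replicates. MetRS, for methionine, followed with a signal of 1110 and pooled rank 386 (replicate ranks 376, 428 and 376). GluProRS encodes one protein that charges both glutamate and proline tRNAs; it had a signal of 553 and pooled rank 723 (replicate ranks 658, 786 and 839). TrpRS, for tryptophan, had a signal of 442 and pooled rank 931 (replicate ranks 868, 960 and 1106). All 5 were far inside the strongest 4260 regions of all 3 replicates, and each outranked every bound mitochondrial gene in every replicate.

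The other 6 bound cytosolic genes had signals between 143 and 365. SerRS had a signal of 365 and pooled rank 1165, with replicate ranks of 1335, 1236 and 1215. GlnRS had a signal of 227 and pooled rank 2135, and IleRS a signal of 223 and pooled rank 2191. AsnRS had a signal of 189 and pooled rank 2653, with a second thresholded summit of signal 152 at rank 3472. These 4 genes, which serve serine, glutamine, isoleucine and asparagine, were among the strongest regions of all 3 replicates. ThrRS, for threonine, had a signal of 167 and pooled rank 3104, with replicate ranks of 4477, 2705 and 2471. AlaRS, for alanine, had a signal of 143 and pooled rank 3709, with replicate ranks of 5263, 4633 and 2561. ThrRS missed the strongest regions of replicate 1, and AlaRS missed those of replicates 1 and 2.

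The median signal of the bound genes was 142 for mitochondrial and 365 for cytosolic genes. It was 223 over all bound synthetase genes, where the median of all bound protein-coding genes was 256. Of the 15 bound synthetase genes, 6 lay above that median, all of them cytosolic, and the strongest signal was 57.1 times the weakest. Over the 15, 11 were among the strongest regions of all 3 replicates, 2 (AspRS-m and ThrRS) of 2 replicates, and 2 (CysRS-m and AlaRS) of 1 replicate.

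**Figure D2:**
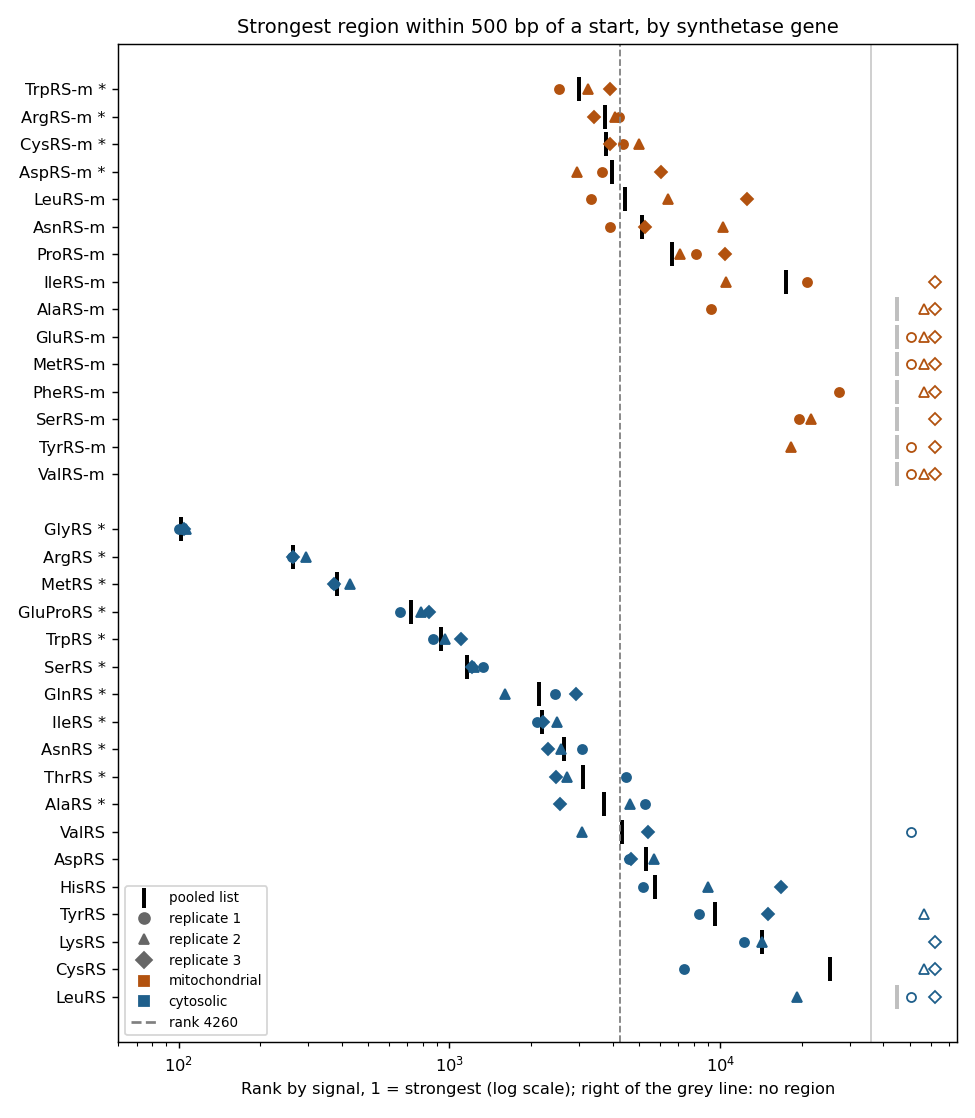
Rank by signal (x axis, log scale, 1 is the strongest) of the strongest region within 500 bp of a start for each synthetase gene, with mitochondrial genes above cytosolic genes; the bar is the pooled list, each symbol is 1 replicate, open symbols and grey bars right of the grey line mark a list with no region, and an asterisk marks a bound gene. The dashed line is rank 4260. GlyRS lies near rank 102 in every list, while the 4 bound mitochondrial genes lie close to the dashed line.

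The upstream DNA of the strongest bound cytosolic genes is shown next, without MetRS, since it carries the largest signals among the synthetase genes and several of the complete DRE sites found beside them. The stretches for ArgRS, GluProRS, TrpRS, GlyRS and IleRS run from 60 bp beyond the summit, or from 300 bp upstream for GlyRS, to the base before the start. They are shorter where an exon of another gene intervenes, as at TrpRS and AlaRS. AlaRS and IleRS were added after their values were seen, because each has a complete DRE within 250 bp of its start. Positions are chr3L:15094842-15095141 on the plus strand for GlyRS, chrX:15844146-15844342 on the minus strand for ArgRS and chr3R:23958392-23958583 on the minus strand for GluProRS. TrpRS is chr3R:9266905-9267018 on the minus strand, IleRS chr3L:22288487-22288664 on the plus strand and AlaRS chr2L:8381765-8381820 on the minus strand. Capitals mark the DRE, TATCGATA, and its core as before, and overlapping matches run together.
GlyRS: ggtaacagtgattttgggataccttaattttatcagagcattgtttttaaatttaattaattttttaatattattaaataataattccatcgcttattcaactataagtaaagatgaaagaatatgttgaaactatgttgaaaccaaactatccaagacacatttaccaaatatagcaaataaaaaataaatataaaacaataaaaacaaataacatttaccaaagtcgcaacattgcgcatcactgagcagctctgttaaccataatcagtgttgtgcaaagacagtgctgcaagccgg
ArgRS: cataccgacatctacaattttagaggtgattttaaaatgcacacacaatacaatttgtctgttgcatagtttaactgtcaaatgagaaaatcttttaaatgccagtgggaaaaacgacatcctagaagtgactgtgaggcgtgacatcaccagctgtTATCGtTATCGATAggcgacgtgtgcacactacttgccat
GluProRS: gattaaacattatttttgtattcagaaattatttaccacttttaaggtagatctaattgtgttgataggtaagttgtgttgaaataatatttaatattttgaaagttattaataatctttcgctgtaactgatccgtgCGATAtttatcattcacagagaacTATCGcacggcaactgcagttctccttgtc
TrpRS: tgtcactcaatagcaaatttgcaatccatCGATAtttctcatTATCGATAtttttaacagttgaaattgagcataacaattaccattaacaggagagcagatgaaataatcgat
IleRS: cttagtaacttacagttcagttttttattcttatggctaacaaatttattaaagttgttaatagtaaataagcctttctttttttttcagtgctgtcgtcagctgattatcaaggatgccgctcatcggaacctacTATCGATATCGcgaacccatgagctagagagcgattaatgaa
AlaRS: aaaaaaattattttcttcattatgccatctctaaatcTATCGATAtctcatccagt
The TrpRS summit lay 0.5 bp from the centre of a complete DRE, which centred 68.5 bp upstream of the start. In ArgRS a complete DRE centred 30.5 bp upstream of the start and 106 bp from the summit, with another 304 bp upstream, outside the stretch. In IleRS a complete DRE centred 38.5 bp upstream of the start and 79.5 bp from the summit, with another 438 bp upstream, outside the stretch. In AlaRS the complete DRE centred 15.5 bp upstream and 62.5 bp from the summit. The GlyRS stretch, with 28.7% G and C, held neither the DRE nor its core; a complete DRE centred 414 bp upstream, 142 bp from the summit, outside the stretch. GluProRS, with 30.2% G and C, held the core in each orientation and no complete DRE.

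Within 50 bp of the summit, counted on both strands, the DRE and its core were about as frequent at bound synthetase genes as at promoter summits in all. A complete TATCGATA was found at 1 of 15 bound synthetase genes, TrpRS (6.67%), and at 9.15% of the 3114 thresholded summits that lay within 500 bp of a protein-coding start. The core CGATA, which every complete DRE also contains, was found at 5 of 15 (33.3%) and at 36.2% of all such summits. Motif 1, GGTCACAC, a core promoter element bound by the factor M1BP, was found at AspRS-m alone (6.67%, and 4.56% of all). Its copy there centred 8.5 bp downstream of the start. The E-box CACGTG and the ATF4 element TGATGNAA, the kind of site through which the amino acid response acts, were found at 0 of 15, where they were at 1.16% and 1.51% of all summits. GAGAG was found at TrpRS alone (7.96% of all). The sequence TATAAA was found at 6 of 15 (40%), against 15.5% of all summits. Those 6 were CysRS-m, AlaRS, AsnRS, MetRS, SerRS and ThrRS. With 100 bp to each side the TATAAA count stayed at 6 of 15 and the share of all summits was 30.3%. In that wider window the DRE was at 3 of 15 (20%), AlaRS, IleRS and TrpRS, against 14.5% of all summits. Its core was at 10 of 15 (66.7%), against 52.1%, so both changed their side of the background with the window. Motif 1 was then at 2 of 15 (13.3%), against 8.9%. No match says more than that the letters are in the window.

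Counted over the promoter, taken as 250 bp before to 50 bp after each annotated start, a complete DRE was in 6 of 33 synthetase genes (18.2%), against 10.2% of all protein-coding genes. It was in 0 of 4 bound mitochondrial genes, 4 of 11 bound cytosolic genes (ArgRS, TrpRS, IleRS and AlaRS), 1 of 11 unbound mitochondrial genes (PheRS-m) and 1 of 7 unbound cytosolic genes (AspRS). All bound protein-coding genes held it at 21.1% and all unbound ones at 5.86%. The core was in 2 of 4 bound mitochondrial genes and in 10 of 11 bound cytosolic genes, GlyRS being the exception, beside 70.5% of bound and 46.3% of unbound protein-coding genes. Motif 1 was in 4 of 33 synthetase promoters, AspRS-m, AsnRS-m, ProRS-m and GlnRS (12.1%), against 8.71% of all. AspRS-m and GlnRS were bound. Over the whole promoter TATAAA was in 19 of 33 synthetase genes (57.6%), near the 51.3% of all, and in 2 of 4 bound mitochondrial and 7 of 11 bound cytosolic genes, where it was in 53.8% of all bound genes.

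Most summits lay just upstream of the synthetase start. Of the 15 bound genes, 13 had the strongest summit upstream (86.7%), which was also the share over all bound protein-coding genes (86.7%), and 14 had it within 150 bp. The median position relative to the start, negative where upstream, was -9.5 bp for mitochondrial genes and -84 bp for cytosolic genes, where it was -85 bp for all bound protein-coding genes. CysRS-m, at 126 bp upstream, was the one mitochondrial gene not within 10 bp of its start. GlyRS had its strongest summit 271 bp upstream and a second thresholded summit 53 bp upstream, with a signal of 6685 at rank 115, in one region of 907 bp. GluProRS (132 bp), ArgRS (137 bp), ThrRS (126 bp) and IleRS (118 bp) had summits more than 100 bp upstream. AlaRS (78 bp), AsnRS (84 bp), TrpRS (68 bp), MetRS (53 bp) and GlnRS (46 bp) had them closer. SerRS, at 6 bp inside its 5' untranslated exon, and ArgRS-m were the bound genes with a summit downstream of the start. The AlaRS summit fell in the 3' untranslated region of the gene CG13392 upstream of it, and the remaining 12 were intergenic. Between replicates the summit moved by 22 bp (TrpRS-m) to 363 bp (AspRS-m) at the mitochondrial genes and by 34 to 115 bp at the cytosolic genes.

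**Figure D3:**
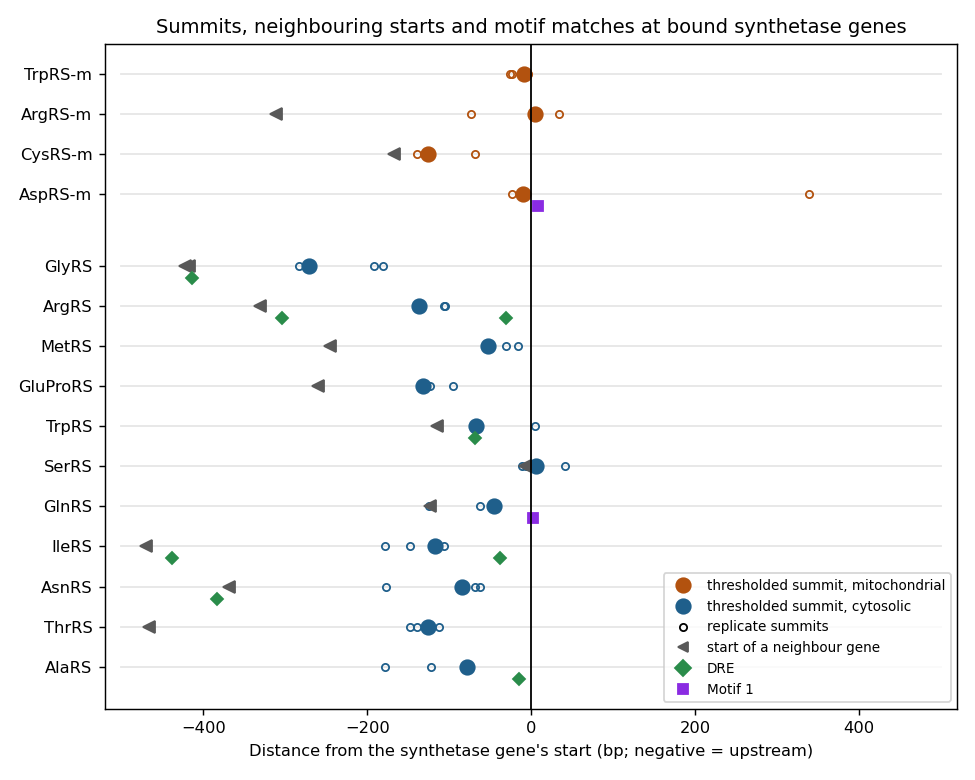
Position (x axis, bp from the synthetase start, upstream negative) of the thresholded summit (large filled circle), the replicate summits (open circles), neighbouring protein-coding starts (triangles) and complete DRE and Motif 1 matches at the 15 bound synthetase genes, mitochondrial above cytosolic. The TrpRS summit lies on its DRE, and a triangle stands left of the thresholded summit at each of the 12 genes that share theirs.

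A second property that the symbol rule did not use was a close neighbour. Of the 33 synthetase genes, 22 (66.7%) had the start of another protein-coding gene within 500 bp of one of their own, against 30.9% of all protein-coding genes. That held for 7 of 15 mitochondrial genes (46.7%) and 15 of 18 cytosolic genes (83.3%). It was not particular to synthetase genes, since 54 of 73 mitochondrial ribosomal protein genes (74%) had such a neighbour. Of cytosolic ribosomal protein genes, 32 of 82 (39%) had one. At such promoters one summit can lie within reach of both starts, and the lists do not assign it to either. The summit was shared in this way at 12 of 15 bound synthetase genes (80%) and at 60% of all bound protein-coding genes. It was shared at 2 of 4 bound mitochondrial genes, CysRS-m and ArgRS-m, and at 10 of 11 bound cytosolic genes, AlaRS being the exception. Among bound ribosomal protein genes it was shared at 78.6% of mitochondrial and 42.3% of cytosolic ones.

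At 4 bound genes the start nearest the strongest summit was that of the neighbour. At CysRS-m it was O-fut1, which encodes an O-fucosyltransferase that acts on Notch, at 42 bp. At GlyRS it was Plp, which encodes a centrosomal protein of the pericentrin family, at 147 bp, with sstn at 152 bp. At TrpRS it was Vps16A, a gene for endosomal and lysosomal membrane tethering, at 47 bp. At GluProRS it was AP-1sigma, a clathrin adaptor subunit gene, at 128 bp, only 4 bp nearer than GluProRS itself. The other shared summits lay nearer the synthetase start. The neighbour started 77 bp away at GlnRS (RIOK2, a kinase of ribosome maturation), 192 bp away at MetRS (CG15084) and 14 bp away at SerRS (CG17260). At the other 5 genes it started 194 to 352 bp away (CG8578 at ArgRS, DCTN6-p27 at AsnRS, CG17816 at ArgRS-m, Patsas at ThrRS and Hem at IleRS).

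Among genes with a neighbour within 500 bp, the synthetase genes were bound about as often as other genes. With a neighbouring start within 500 bp, 12 of 22 synthetase genes (54.5%) were bound, against 53.9% of all such protein-coding genes. Over the replicate lists these shares were 53% ± 2.62 and 52.1% ± 2.28 (SD, n = 3). With none, 3 of 11 (27.3%) were bound, against 16.7% of all such genes, or 21.2% ± 5.25 and 16.4% ± 0.4 over the replicate lists. The 3 were TrpRS-m, AspRS-m and AlaRS. When regions also had to overlap the strongest regions of replicates 2 and 3, or of 1 and 3, the share with none was 9.09%. That was below the 13.1% or 13.3% of all such genes, so its side of the background was not stable. Among genes with a neighbour, 2 of 7 mitochondrial genes (28.6%) and 10 of 15 cytosolic genes (66.7%) were bound. That difference of -38.1 points was -17.1, -52.4 and -38.1 in replicates 1, 2 and 3. Among genes without one, 2 of 8 mitochondrial and 1 of 3 cytosolic genes were bound.

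These shares depended on what counts as a neighbour; the other distances were chosen after seeing the data. Of the 16 synthetase genes whose closest other protein-coding start was within 300 bp, 6 were bound (37.5%), against 52.7% of all such genes. All 6 of those with the closest start 301 to 500 bp away were bound, against 57% of all such genes: ArgRS-m, ArgRS, AsnRS, GlyRS, IleRS and ThrRS. With 300 bp as the limit, the shares turned round to 37.5% with a neighbour and 52.9% without, where 21.2% of all protein-coding genes without one were bound. Of the 3 genes at 501 to 1000 bp, AlaRS was bound, and of the 8 farther away, TrpRS-m and AspRS-m. The part of shared promoters in the binding of the synthetase genes was not tested.

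Amino acids with a gene of each kind allow the 2 classes to be set side by side. There were 14 such pairs, with GluProRS standing against both GluRS-m and ProRS-m. The cytosolic gene had the stronger pooled region in 11 pairs and the mitochondrial gene in 3. Both genes were bound for arginine and tryptophan, where ArgRS-m at rank 3742 stood against ArgRS at rank 265, and TrpRS-m at rank 3008 against TrpRS at rank 931. In 7 pairs only the cytosolic gene was bound (alanine, asparagine, glutamate, isoleucine, methionine, proline and serine). In 2 pairs only the mitochondrial gene was bound. AspRS-m at rank 3966 stood against AspRS at rank 5330, and CysRS-m at rank 3779 against CysRS at rank 25434. The AspRS summit fell in an intron of AspRS, 215 bp upstream of 1 of its 3 annotated starts. The start of Nmda1 was nearer, at 161 bp. Neither was bound for leucine, tyrosine and valine, and for leucine the mitochondrial gene, at rank 4453, had a region while LeuRS had none. The 5 cytosolic genes with no -m gene of the same amino acid (GlnRS, GlyRS, HisRS, LysRS and ThrRS) included 3 bound ones (60%). Of all protein-coding genes 28.2% were bound. All 5 had a neighbouring start within 500 bp, and 60% is near the 53.9% bound among all protein-coding genes with one.

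**Figure D4:**
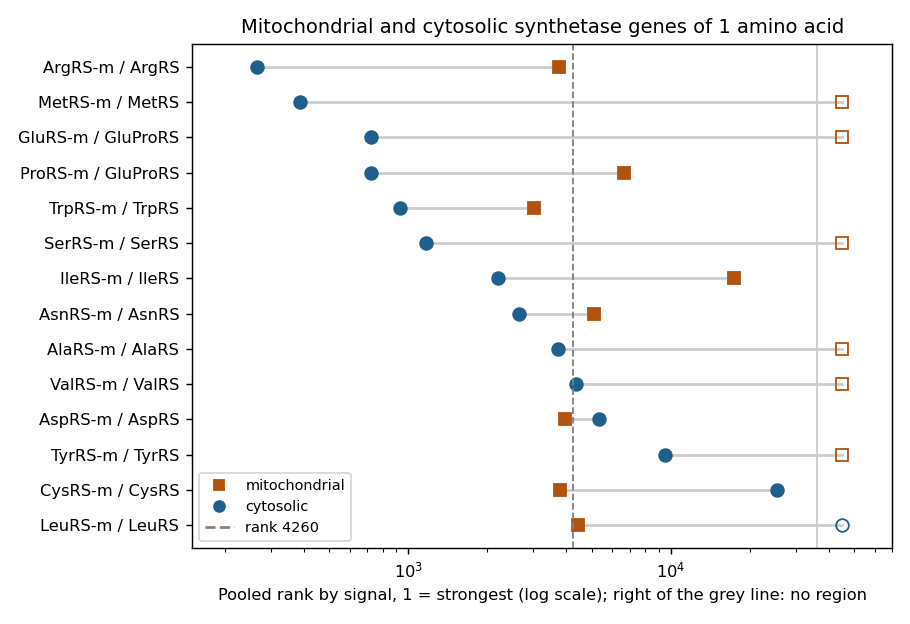
Pooled rank by signal (x axis, log scale, 1 is the strongest) of the mitochondrial gene (squares) and the cytosolic gene (circles) for each of 14 amino acid pairs; open symbols right of the grey line have no pooled region within 500 bp of a start, and the dashed line is rank 4260. The square lies right of the circle in 11 pairs and left of it for aspartate, cysteine and leucine.

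Of the 18 unbound synthetase genes, 8 had no pooled region within 500 bp of a start, and 7 of these were mitochondrial. They were AlaRS-m, GluRS-m, MetRS-m, PheRS-m, SerRS-m, TyrRS-m, ValRS-m and LeuRS. GluRS-m, MetRS-m and ValRS-m had no region in any replicate list either, and the other 5 had one in 1 or 2 replicates at ranks from 9195 (AlaRS-m, replicate 1) to 27471 (PheRS-m, replicate 1). Just outside the threshold, ValRS had a pooled signal of 124 at rank 4350, its summit 480 bp from its own start and 33 bp from that of Kdm4B, a histone demethylase gene. LeuRS-m had a signal of 122 at rank 4453, and its summit was 118 bp from its own start and 48 bp from that of Dhc64C, the cytoplasmic dynein heavy chain gene. Just inside it stood AspRS-m, at a signal of 136. The values on the 2 sides of the threshold were close.

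The remaining unbound genes with a pooled region were AsnRS-m (rank 5116), ProRS-m (6641) and IleRS-m (17434), and AspRS (5330), HisRS (5733), TyrRS (9549), LysRS (14291) and CysRS (25434). AsnRS-m had its region 16 bp from its start, with replicate ranks of 3903, 10229 and 5265. LeuRS-m ranged more widely, at 3331, 6386 and 12498, and ValRS was missing in replicate 1 and ranked 3092 and 5390 in replicates 2 and 3. These 3 were the unbound genes with one of the strongest regions in any replicate, each in 1 of 3. HisRS shares its annotated start position with the gene Bx, and a thresholded summit lay inside HisRS, 817 bp from its start. For the unbound genes the nearest thresholded summit lay between 817 bp and 127618 bp away (LeuRS-m), with a median of 6076 bp.

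The bound genes were spread over the arms. On 2L 5 of 6 synthetase genes were bound (26.6% of all protein-coding genes there), and on 2R 2 of 8 (27.4%). On 3L it was 3 of 10 (27.1%), on 3R 4 of 6 (30.5%) and on X 1 of 3 (28.3%). Beside the 28.2% of all protein-coding genes, 8 of 18 class I genes and 6 of 14 class II genes (44.4% and 42.9%) were bound by enzyme class, with GluProRS, which joins both, left out. Among mitochondrial genes that was 3 of 9 in class I and 1 of 6 in class II. Among cytosolic genes it was 5 of 9 in class I and 5 of 8 in class II. In human cells several cytosolic synthetases travel together in a multi-synthetase complex. The 8 fly genes for those amino acids (ArgRS, AspRS, GluProRS, GlnRS, IleRS, LeuRS, LysRS and MetRS) had 5 bound members, and the other cytosolic genes 6 of 10. All 8, and 7 of the other 10, had a neighbouring start within 500 bp, where 53.9% of all such protein-coding genes were bound. The grouping by the human complex was chosen after the values were seen.

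Other genes of the pathway gave mixed counts. Of 9 genes whose products work beside the synthetases, 3 were bound, where 28.2% of all protein-coding genes were. The elongation factor genes eEF1beta and eEF1gamma, whose products help deliver charged tRNA to the ribosome, had signals of 1111 and 472, the first with its summit at -469 bp from the start and shared with Psi. The subunit gene beta-PheRS had a signal of 559 at pooled rank 711. Its partner subunit gene alpha-PheRS was unbound at pooled rank 5412. The scaffold genes AIMP1, AIMP2 and AIMP3 of the multi-synthetase complex were unbound, at pooled ranks 5220, 6056 and 10097. The gene eEF1delta was unbound at rank 13837. Slimp, a mitochondrial relative of seryl-tRNA synthetase that no longer charges tRNA, was unbound at rank 4477.

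In mitochondrial translation, 5 of 11 genes found under the symbols listed were bound, beside 28.2% of all protein-coding genes. GatA, GatB and GatC, the subunits of the amidotransferase that completes mitochondrial glutaminyl-tRNA, were all bound, with signals of 196, 238 and 201. The summits at all 3 were shared with a neighbour: P5cr at GatA, Tsc1 at GatB, and PolG2 and Polr2C at GatC. Of all protein-coding genes with a neighbouring start within 500 bp, 53.9% were bound. GluRS-m, the synthetase gene on the same route, had no pooled region. The elongation factor gene mEFTu2 had a signal of 196 and the release factor gene mRF1 a signal of 283. In replicate 3 mEFTu2 had no region and GatA was at rank 5674, outside the strongest regions. The unbound genes were mEFTs (rank 4336), mEFTu1 (7534), mIF3 (21251), mIF2 (23265), mEFG1 (24225) and mRRF1 (no pooled region). Of 6 genes of the amino acid response, 2 were bound, beside the same 28.2%. They were PPP1R15 (signal 503) and AsnS, the asparagine synthetase gene (signal 251). The AsnS summit was at -431 bp from the start, shared with chb, and replicate 3 had no region there. The kinase gene Gcn2, whose product senses uncharged tRNA, had no pooled region, and crc, the fly ATF4 gene, was at rank 8392. PEK was at rank 6824 and Thor at rank 10630.

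Ribosomal protein genes show the same 2 compartments on a larger set. Of the mitochondrial ones 42 of 73 (57.5%) were bound, and of the cytosolic ones 71 of 82 (86.6%), beside 28.2% of all protein-coding genes. The synthetase shares of 26.7% and 61.1% were below these in each compartment, with the cytosolic genes higher in both families. Over the replicate lists the mitochondrial shares were 24.4% ± 7.7 for synthetase and 53.9% ± 2.85 for ribosomal protein genes, and the cytosolic shares 57.4% ± 6.42 and 85.8% ± 2.82 (SD, n = 3). Each gap was larger than the spread between replicates. That spread shows how calls moved between lists of the same genes, and does not measure how uncertain a share of few genes is. The median signals of the bound genes were 142 for mitochondrial synthetase and 279 for mitochondrial ribosomal protein genes, and 365 for cytosolic synthetase and 299 for cytosolic ribosomal protein genes. A neighbouring start within 500 bp was found at 74% of mitochondrial and 39% of cytosolic ribosomal protein genes. For synthetase genes the order was the reverse, 46.7% and 83.3%. With no such neighbour, 9 of 19 mitochondrial (47.4%) and 41 of 50 cytosolic (82%) ribosomal protein genes were bound. Of all protein-coding genes without one, 16.7% were bound.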

How the data were processed

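Chromatin immunoprecipitation was sequenced from 3 biological replicates of 1 group. The deposited files are lists of regions on dm6, with the authors' signal in one column per region, whose exact scale, aligner and peak caller are not given in the sources used here. The 5 dm6 lists (thresholded, pooled and 3 replicate lists) were used, and the dm3 lists were not. The thresholded list was cut by irreproducible discovery rate, per the names of the deposited lists. Summits were taken as region start plus summit offset. Transcript starts came from Ensembl release 115 (BDGP 6.54), with 18164 genes and 23581 start positions on 6 arms, and sequence from the RefSeq dm6 assembly. The summit with the largest signal within 500 bp of a start was assigned to each gene, ties in rank took the smallest rank, and shares over replicate lists are given as mean and SD. Signal was compared only within a list.

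Every synthetase gene is named with its call. Bound ones get signal, pooled rank and offset, and the 5 strongest bound of each class get replicate ranks. Members and lists were chosen with earlier results of these data known. The assignment was tested on simulated regions. Motifs were searched on both strands. Alternatives were the distance, the list, overlap with the strongest regions of replicates, replicates left out of the rank difference, shared summits, start choice and membership. Python 3.11.15, NumPy 2.4.6 and Matplotlib 3.10.9 were used.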

Additional observations from a re-analysis of the deposited data

How the results depend on the processing

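In all 18 alternatives to the share of bound genes, mitochondrial minus cytosolic, the cytosolic share was higher, and the difference lay between -42.2 and -13.3 percentage points, with 16 alternatives within 1 SD of the main -34.4. It was -16.7 in the strongest regions of replicate 1 alone. Leaving out genes whose summit was shared with a neighbour kept 3 of 13 synthetase genes bound (23.1%, against 15.2% of all protein-coding genes filtered alike), 2 of 10 mitochondrial and 1 of 3 cytosolic, and gave -13.3, which rests on those 3 cytosolic genes. Genes with no pooled region stayed in, whatever their neighbours. They made up 8 of the 13, 7 of them mitochondrial, and could not be bound. These shares therefore do not describe genes without a shared promoter. In the regions above the median signal of the thresholded list 6 synthetase genes were bound (18.2%, against 16.3% of all), 0 mitochondrial and 6 cytosolic. Requiring the strongest regions of every replicate kept 2 mitochondrial genes (13.3%, against 21.9% of all), as did an overlap of at least 0.5 of the region (21.2% of all). Each thresholded region was also required to overlap the strongest regions of 2 of the 3 replicates, for each choice of 2. The thresholded list came from all 3, so no replicate was removed from it. The requirement gave 11 to 12 bound genes, 2 to 3 of them mitochondrial and 9 to 10 cytosolic, and a difference of -42.2 to -30. Of all protein-coding genes, 22.8% to 24.4% were then bound. Requiring all 3 replicates also left 11 bound synthetase genes. AlaRS and CysRS-m were lost for every choice of 2 replicates, AspRS-m for those that included replicate 3, and ThrRS for those that included replicate 1. The same choices of 2 replicates gave a share with a neighbouring start within 500 bp of 45.5% to 50% (44.4% to 47.2% of all such genes). They gave a share with none of 9.09% to 18.2% (13.1% to 14.2% of all such genes). The difference in mean log10 rank stayed between 0.59 and 0.64. With 100 bp to each side of the summit the DRE was at 3 bound genes (14.5% of all summits), its core at 10 (52.1%) and Motif 1 at 2 (8.9%). No paired analysis was possible because the 3 replicates form 1 group, with no other group to pair them with; the gene classes were compared within each replicate.

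The files hold no read counts, so no interval covers counting error, and genes near rank 4260 cannot be placed on either side of the threshold with confidence. No control library was analysed here, so binding by CG3995 and recovery of promoter DNA in any such experiment cannot be told apart. Classes of 15 and 18 genes make each gene worth several percentage points.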
